A study of Mus musculus with 21 samples.

Results

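The genes described here move copper into, through and out of cells: 2 SLC31 transporters (Slc31a1 and Slc31a2), 2 copper-pumping ATPases (Atp7a and Atp7b), 2 chaperones (Atox1 and Ccs), the trafficking factor Commd1 and 3 metal reductases (Steap2, Steap3 and Steap4). They were taken by symbol, and all 10 were found among the 21872 gene symbols of the tables. RNA was sequenced from mouse brain in 4 groups. Embryonic day 18.5 (E18.5) had 6 libraries labelled control, given water, and 6 labelled copper-deficient, given TETA (trientine), a chelator that binds copper and is used to treat copper overload. At 7 weeks after birth there were 5 control libraries and 4 TETA libraries. The protocol names prefrontal cortex of male mice at 7 weeks, while every library is labelled as brain, so the region at E18.5 is not stated; no genotype, strain, dose or duration is given. Nothing says which libraries came from separate animals or litters, so the p-values measure the spread between libraries.

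Copper enters cells as Cu(I), after reduction of Cu(II) at the membrane by STEAP proteins, through CTR1, the product of Slc31a1. CTR2, the product of Slc31a2, is a related protein found largely on internal membranes, where it affects copper release and CTR1 processing. Inside the cell ATOX1 hands copper to the pumps ATP7A and ATP7B, which load secreted enzymes and export copper, while CCS delivers it to superoxide dismutase SOD1. Loss of ATP7A causes Menkes disease, with severe neurodegeneration, and loss of ATP7B causes Wilson disease. Copper supply is known to act on several of these proteins through their turnover and location; mRNA alone was measured here.

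Slc31a1 (chr4:62360727-62391769, plus strand, mm10) and Slc31a2 (chr4:62262562-62298411, plus strand) lie 62315 bases apart, with 1 annotated gene, Fkbp15 on the minus strand, between them. At 7 weeks Slc31a2 passed the test for TETA and Slc31a1 did not, a difference between the genes that was itself not tested, and the 250 bases before each RefSeq start site (GRCm38.p6) are shown for this reason. The Slc31a2 window precedes an internal start: it ends 23867 bases downstream of the start of the annotated gene, while the Slc31a1 window ends just before its gene. The first part of the Slc31a1 window lies inside Fkbp15 (chr4:62300342-62360548), whose own start falls within that window. Capitals mark the core of the metal response element (TGCACNC or TGCGCNC), which the metal-sensing factor MTF-1 binds, and the GC box (GGGCGG), which SP1 binds; both strands were searched, and no matches overlapped in these windows.
Slc31a1, chr4:62360451-62360700, plus strand: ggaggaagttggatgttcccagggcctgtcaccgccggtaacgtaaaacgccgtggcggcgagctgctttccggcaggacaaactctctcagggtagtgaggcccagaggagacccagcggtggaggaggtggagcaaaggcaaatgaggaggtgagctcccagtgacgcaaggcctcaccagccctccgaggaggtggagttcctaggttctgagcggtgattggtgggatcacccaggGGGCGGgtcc
Slc31a2, chr4:62286179-62286428, plus strand: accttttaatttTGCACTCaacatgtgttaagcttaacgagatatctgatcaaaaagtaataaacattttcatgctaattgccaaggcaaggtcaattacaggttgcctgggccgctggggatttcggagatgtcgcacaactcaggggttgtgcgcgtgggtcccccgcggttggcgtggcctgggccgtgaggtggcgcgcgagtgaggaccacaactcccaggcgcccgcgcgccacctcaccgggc
The Slc31a1 window held 1 GC box, starting 10 bases before the start site, and 0 metal response cores. The Slc31a2 window held 1 metal response core, starting 238 bases before the start site, and 0 GC boxes. Over 32851 RefSeq windows of the same 250 bases, 21.4% held a metal response core and 32.7% a GC box, so either match is common. Of the other windows, that of Atp7a held 2 such cores, that of Atp7b 1, both of Commd1 1 each and 1 of the 3 of Steap2 1, while those of Atox1, Steap3 and Steap4 held 0. Those of Mt1 and Mt2, the metallothionein genes that MTF-1 drives, held 1 and 3. These matches describe letters in a window and say nothing about binding.

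Each E18.5 library held between 14678265 and 24308555 counts, and each 7-week library between 17838051 and 24035857. In the E18.5 table, 1940 rows at 0 in control replicate 1-1 held multiples of 11 in every other library and were divided by 11; of the genes described here this touched Steap4 alone. Neuronal and cortical markers were abundant in every group, with summed levels of 8583 to 9182 CPM (read counts scaled to the size of each library) for 7 neuronal genes at 7 weeks and 6619 to 7023 CPM at E18.5. Y-linked genes summed to under 1 CPM in 2 of 6 control and 3 of 6 TETA libraries at E18.5 and to at least 136 CPM in every library at 7 weeks. In control replicate 4 at 7 weeks the choroid plexus markers summed to 65.1 CPM, against 3.86 to 7.12 CPM in the other 8 libraries of that age.

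The first comparison asks whether copper-handling genes responded to the chelator in the embryonic brain, and no response was detected. Of 9 genes tested, 0 were called by edgeR's quasi-likelihood test (Benjamini-Hochberg adjusted p below 0.05), against 0% of all 13794 genes. At an unadjusted p under 0.05 there were 0 of the 9, against 4.78% of all genes, and DESeq2 also called 0 of them, against 0.0561% of all genes it tested. The control and TETA ranges were separate for 0 of the 9, against 0.319% of all genes. Their log2 fold changes ran from -0.08 for Steap2 to 0.20 for Steap3, with edgeR adjusted p-values from 0.996 to 0.999.

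Slc31a1, the importer, had a lowest, median and highest level of 40.9, 43.9 and 49.9 CPM in controls, against 40.3, 46.4 and 49.5 CPM under TETA at E18.5. The groups overlapped almost entirely, and the log2 fold change was 0.05 (SE 0.053). Slc31a2 stood at 8.54, 8.78 and 9.75 CPM in controls, against 7.68, 8.68 and 11.2 CPM under TETA, with a log2 fold change of 0.00 (95% interval -0.17 to 0.17). TETA libraries were both the lowest and the highest for this gene.

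Atp7a (chrX:106027276-106124926), the pump that carries copper out of the cells lining brain vessels, had a lowest, median and highest level of 19.4, 22.3 and 24.5 CPM in controls, against 20.8, 23.2 and 25.2 CPM under TETA at E18.5. Of the 6 TETA libraries, 2 lay above the highest control, and the log2 fold change was 0.09 (95% interval -0.04 to 0.22). The gene is X-linked and the E18.5 libraries differed in Y-linked level; with that level as a covariate the log2 fold change was 0.08 (SE 0.063). For Atp7b (chr8:21992785-22060305), the Wilson disease pump, the levels were 5.43, 6.43 and 7.51 CPM in controls, against 6.01, 6.43 and 7.20 CPM under TETA. No TETA library lay outside the control range.

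The 2 chaperones were at the same mean level in both E18.5 groups. Atox1 (chr11:55446641-55461239) was at 20.4 ± 1.60 CPM in controls, against 20.3 ± 2.50 CPM under TETA (SD, n = 6 and 6). Ccs (chr19:4825366-4839332), which loads SOD1, was at 10.1 ± 0.602 and 10.1 ± 1.02 CPM. Commd1 (chr11:22896136-22982382), a subunit of a complex that recycles ATP7A and ATP7B from endosomes, was at 10.8 ± 1.19 and 10.4 ± 0.887 CPM.

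Among the reductases at E18.5, Steap2 (chr5:5664829-5694578) was at 6.22 ± 0.335 CPM in controls, against 5.83 ± 0.693 CPM under TETA. Steap3 (chr1:120190757-120272705), the endosomal reductase of developing red cells, was at 1.25 ± 0.277 and 1.47 ± 0.258 CPM, and its log2 fold change of 0.20 had the widest interval, from -0.16 to 0.56. Apart from Steap3, the 95% intervals of the tested genes lay between -0.26 and 0.22 on the log2 scale. Steap4 (chr5:7960457-7982213), a reductase induced in inflamed tissue, had 5 counts over the 6 control libraries and 6 over the 6 TETA libraries after the division, too few to be tested.

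**Figure D1:**
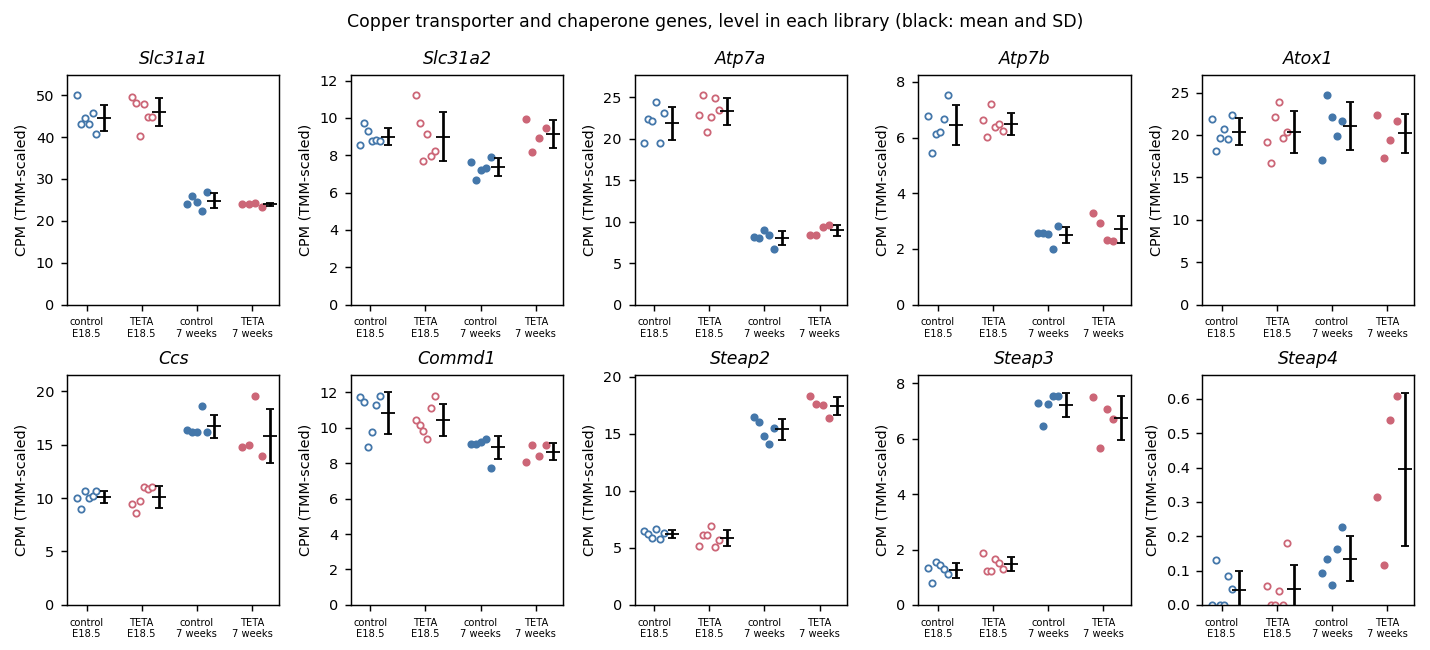
Level of each of the 10 genes in every library, in TMM-scaled CPM on a linear axis from 0 that differs between panels. Circles are libraries (open at E18.5, filled at 7 weeks), and black marks give the mean and SD; the 4 TETA libraries at 7 weeks lie above all 5 controls for Slc31a2 alone.

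The same comparison at 7 weeks found 1 gene, Slc31a2, past the adjusted threshold, with a 1.25-fold higher level in TETA. That is 1 of 9 tested, against 9.96% of all 14240 genes (5.67% higher and 4.28% lower), so the count is near the background. Over all genes 808 were higher and 610 lower; with library totals alone as the scale these became 1003 and 480. At an unadjusted p under 0.05 there were 2 of the 9 (Slc31a2 and Steap2), against 24% of all genes. The median log2 fold change was -0.03 over the 9 genes and 0.00 over all genes.

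Slc31a2 was at 7.65, 6.65, 7.20, 7.34 and 7.92 CPM in control replicates 1 to 5 at 7 weeks. In TETA replicates 1 to 4 it was at 9.95, 8.17, 8.92 and 9.44 CPM. All 4 TETA libraries lay above all 5 controls, which was true of 11.2% of genes in one direction or the other. Group means were 7.35 ± 0.480 and 9.12 ± 0.759 CPM (SD, n = 5 and 4), resting on 127 to 221 counts per library. The log2 fold change was 0.33 (SE 0.089, 95% interval 0.14 to 0.51), and the edgeR adjusted p was 0.0233. The span of Slc31a2 holds Gm23148, a small nuclear RNA gene on the same strand that is not among the counted genes.

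The call for Slc31a2 depended on single libraries although its direction did not. In edgeR's test the adjusted p was 0.0678 without control replicate 2, and 0.0891, 0.0516 and 0.0572 without TETA replicate 1, 3 and 4; it stayed below 0.05 when each of the other 5 was left out. The log2 fold change over these 9 fits ran from 0.28 to 0.37. Striatal markers were lower in TETA: 13 genes summed to 870 to 1085 CPM in controls, against 392 to 521 CPM under TETA, and all 13 passed the test. For 9 oligodendrocyte genes the sums were 6886 to 8126 CPM and 6111 to 7180 CPM, which overlap, and 0 of the 9 passed. Astrocyte genes summed to 5835 to 6715 CPM in control and 5289 to 5674 CPM in the TETA group (3 of 7 lower). Meningeal fibroblast genes summed to 53.8 to 65.7 CPM and 35.3 to 52.9 CPM (3 of 7 lower). The part of these 2 lists was not tested. Of 7 neuronal and of 8 cortical excitatory genes, 1 was higher and 1 lower in each list. Of 8 endothelial genes 1 was higher, and of 5 choroid plexus genes 1 was lower. Over all genes 9.96% passed, with 5.67% higher and 4.28% lower. With the striatal level as a covariate, which did not overlap between the groups, the log2 fold change of Slc31a2 was 0.36 (SE 0.31) and its edgeR adjusted p 0.996, in a fit that called 1 of all 14240 genes. With the oligodendrocyte level it was 0.30 (SE 0.10), with an edgeR adjusted p of 0.0837, in a fit that called 891 (6.26%). In bulk tissue, fewer cells of a type cannot be told apart from less RNA per cell.

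**Figure D2:**
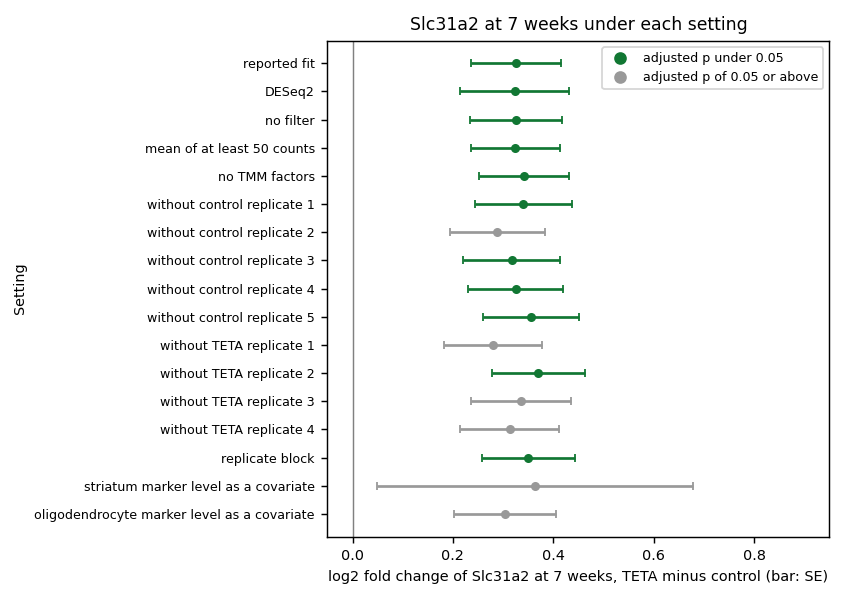
Log2 fold change of Slc31a2 at 7 weeks, TETA minus control, in the reported fit and under each alternative (points, with SE as bars). Every estimate lies above 0, from 0.28 to 0.37, and grey points mark settings in which the adjusted p was 0.05 or above.

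Slc31a1, the importer, did not pass at 7 weeks. It was at 24.1, 26.0, 24.5, 22.4 and 26.9 CPM in control replicates 1 to 5 and at 23.9, 24.1, 24.3 and 23.4 CPM in TETA replicates 1 to 4. The TETA libraries all lay inside the control range. The log2 fold change was -0.04 (95% interval -0.16 to 0.08). Slc31a1 overlaps Cdc26 on the other strand, and the strand setting of the counting is not given in the sources used here.

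Neither pump passed the test at 7 weeks. Atp7a was at 8.11, 8.03, 8.95, 8.36 and 6.65 CPM in controls, against 8.42, 8.35, 9.33 and 9.64 CPM under TETA. Control replicate 5 was the lowest of all 9 libraries, and TETA replicates 3 and 4 were the only ones above every control. The log2 fold change was 0.17 (95% interval -0.02 to 0.37), with an edgeR adjusted p of 0.278. Atp7b was at 2.00 to 2.80 CPM in controls, against 2.28 to 3.29 CPM under TETA, on 37 to 73 counts per library, and its interval ran from -0.22 to 0.45.

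Chaperone and trafficking genes at 7 weeks had group means within 1 SD of each other. Atox1 was at 21.1 ± 2.84 CPM in controls, against 20.2 ± 2.30 CPM under TETA (SD, n = 5 and 4). Ccs was at 16.7 ± 1.08 and 15.8 ± 2.55 CPM, with 3 of 4 TETA libraries below every control and TETA replicate 3, at 19.6 CPM, above every control. The log2 fold change of Ccs was -0.06 (SE 0.087), and from -0.19 to -0.003 when each library was left out. Commd1 was at 8.89 ± 0.659 and 8.64 ± 0.485 CPM. Commd1 shares its locus with Zrsr1, on the other strand, and with Gm28048, on the same strand, so its counts may hold or lack reads of these genes.

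Steap2 came next to Slc31a2 at 7 weeks without passing. It was at 16.5, 16.0, 14.8, 14.1 and 15.5 CPM in control replicates 1 to 5 and at 18.3, 17.6, 17.5 and 16.4 CPM in TETA replicates 1 to 4. TETA replicate 4 lay just below control replicate 1, and the other 3 lay above all controls. The log2 fold change was 0.19 (SE 0.065), with an edgeR adjusted p of 0.0678; scaling by library totals alone gave 0.21 and an edgeR adjusted p of 0.0478. Steap3 was at 7.22 ± 0.442 CPM in controls, against 6.74 ± 0.793 CPM under TETA, a log2 fold change of -0.08 (SE 0.099).

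Steap4 was close to the limit of detection at 7 weeks. It had 2, 3, 1, 3 and 5 counts in control replicates 1 to 5 and 7, 2, 12 and 12 counts in TETA replicates 1 to 4. TETA replicate 2 lay within the control range and the other 3 above it. The gene was removed by the filter on low counts; without a filter its log2 fold change was 1.53 (SE 0.50), with an edgeR adjusted p of 0.0601.

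**Figure D3:**
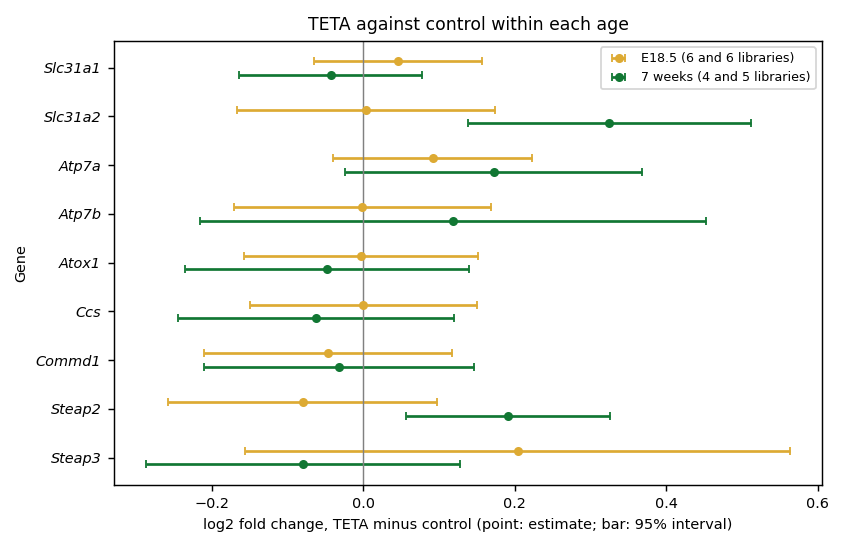
Log2 fold change of TETA minus control for the 9 tested genes at E18.5 (yellow) and at 7 weeks (green); points are estimates and bars 95% intervals. All 9 intervals at E18.5 include 0, and at 7 weeks those of Slc31a2 and Steap2 lie above it.

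Whether the effect of TETA differed between ages was tested as an interaction in a joint fit of all 21 libraries. By edgeR's test 0 of the 9 genes were called at an adjusted p below 0.05, against 3.1% of all 14660 genes (1.67% higher and 1.43% lower); DESeq2 called 0 as well, against 3.31%, and 2 of the 9 had an unadjusted p under 0.05, against 15.9%. For Slc31a2 the effect at 7 weeks exceeded that at E18.5 by 0.31 on the log2 scale (95% interval 0.06 to 0.56), with an edgeR adjusted p of 0.185. For Steap2 the difference was 0.26 (95% interval 0.04 to 0.47), with an edgeR adjusted p of 0.204. A different response at the 2 ages was therefore not established for any of the 9.

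Levels were next compared between the ages. In control libraries 8 of the 9 genes differed between 7 weeks and E18.5 at an adjusted p of 0.05 in edgeR's test, against 89.3% of all 14660 genes; 5 were lower at 7 weeks and 3 were higher, against 45.3% and 44% of all genes. At an unadjusted p under 0.05 the same count of 8 stood against 89.7%. In TETA libraries 7 of the 9 were called, against 88.1% of all genes (7 against 88.4% unadjusted), and for 7 the ages did not overlap, against 80.3%. In controls both pumps, both SLC31 genes and Commd1 were lower in the older brain, and Steap2, Steap3 and Ccs were higher; in TETA libraries Slc31a2 did not pass. A log2 difference above 1 in size was found for Atp7a, Atp7b, Steap2 and Steap3, 4 of the 9, against 41.3% of all genes. With the Y-linked level as a covariate in the joint fit, the same 8 genes were called, with log2 differences from -1.44 for Atp7a to 2.52 for Steap3. Age went with the count table and possibly with brain region, and these cannot be told apart.

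On the import side, Slc31a1 fell from 44.5 ± 3.11 CPM at E18.5 to 24.8 ± 1.75 CPM at 7 weeks in controls (SD, n = 6 and 5), a 1.79-fold lower level with an edgeR adjusted p of 4.84e-15. Slc31a2 fell from 8.99 ± 0.452 to 7.35 ± 0.480 CPM, a log2 difference of -0.29 (SE 0.085, edgeR adjusted p 0.00242). In TETA libraries, where Slc31a2 was at 8.99 ± 1.32 CPM at E18.5 and 9.12 ± 0.759 CPM at 7 weeks, the log2 difference between ages was 0.02 (95% interval -0.16 to 0.20). The control contrast and the TETA contrast share no libraries.

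Of the pumps, Atp7a fell from 21.8 ± 2.02 to 8.02 ± 0.847 CPM in controls, a 2.74-fold lower level (edgeR adjusted p 6.48e-18). Atp7b fell from 6.45 ± 0.706 to 2.50 ± 0.301 CPM, a 2.57-fold lower level (edgeR adjusted p 4.24e-13). The ranges of the ages did not overlap for either pump, which held for 79.5% of all genes. In TETA libraries the log2 differences were -1.38 for Atp7a and -1.26 for Atp7b, beside control values of -1.45 and -1.36.

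Atox1, which supplies both pumps, was at 20.4 ± 1.60 CPM at E18.5 and 21.1 ± 2.84 CPM at 7 weeks in controls, and was the 1 tested gene that did not pass. Its log2 difference was 0.05 (95% interval -0.13 to 0.22). Ccs rose from 10.1 ± 0.602 to 16.7 ± 1.08 CPM, a log2 difference of 0.72 (SE 0.079, edgeR adjusted p 6.4e-10). Commd1 fell by 0.28 on the log2 scale (SE 0.080, edgeR adjusted p 0.00188), with overlapping ranges. Steap4 was untested between the ages, with 5 counts over the 6 E18.5 controls and 14 over the 5 controls at 7 weeks.

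Steap3 rose most, from 1.25 ± 0.277 to 7.22 ± 0.442 CPM in controls, 5.64-fold (edgeR adjusted p 2.68e-18). Steap2 rose from 6.22 ± 0.335 to 15.4 ± 0.944 CPM, 2.48-fold (edgeR adjusted p 2.28e-17). Markers of glia rose and those of blood fell over the same interval: 9 of 9 oligodendrocyte, 7 of 7 astrocyte and 8 of 8 microglial genes were higher at 7 weeks, and 6 of 6 tested erythroid genes were lower, against 44% and 45.3% of all genes. Summed erythroid markers were at 127 to 258 CPM at E18.5 and 35.2 to 52.8 CPM at 7 weeks in controls, while Steap3 went the other way. The part of these cell populations in the levels of the genes described here was not tested.

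**Figure D4:**
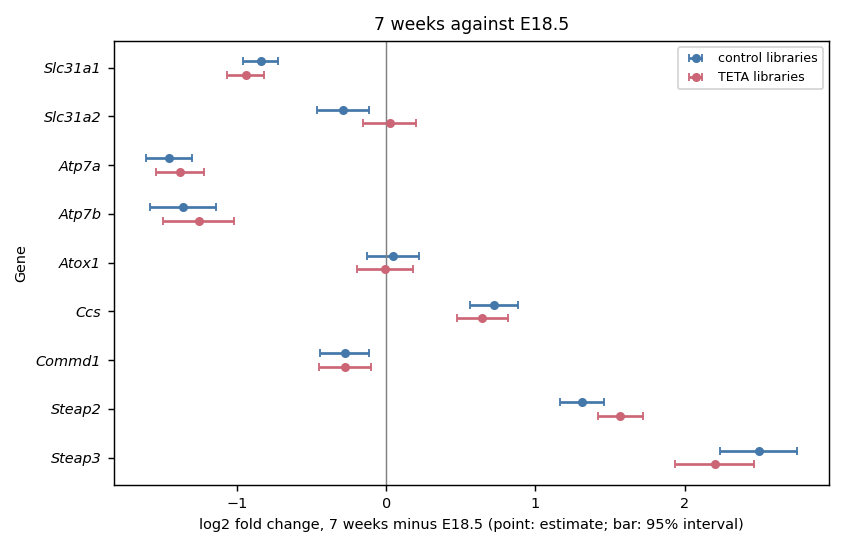
Log2 fold change between 7 weeks and E18.5 for the 9 tested genes in control libraries (blue) and in TETA libraries (red); points are estimates and bars 95% intervals. Slc31a1, Atp7a, Atp7b and Commd1 lie below 0 and Ccs, Steap2 and Steap3 above 0 in both, and Atox1 spans 0 in both; Slc31a2 lies below 0 in control libraries and spans 0 in TETA libraries.

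To compare the genes with one another, levels were divided by the exon length of each gene in GENCODE M21 (mm10). Atox1, with 541 bases of exon, was highest in every group, at 37.7 ± 2.95 CPM per kb in E18.5 controls and 39.0 ± 5.25 CPM per kb in 7-week controls. In E18.5 controls the order then ran Slc31a1 (10.4 CPM per kb), Ccs (5.67), Slc31a2 (4.42), Atp7a (2.50), Commd1 (1.82), Atp7b (0.991), Steap2 (0.512), Steap3 (0.219) and Steap4 (0.0138), and no 2 neighbours in this order overlapped at these lengths. In 7-week controls Ccs (9.39) stood above Slc31a1 (5.79), followed by Slc31a2 (3.62), Commd1 (1.50), Steap2 (1.27), Steap3 (1.26), Atp7a (0.918), Atp7b (0.384) and Steap4 (0.0425). There Commd1 overlapped Steap2, and Steap2 overlapped Steap3. Within TETA, Ccs overlapped Slc31a2 at E18.5, and at 7 weeks Commd1 overlapped Steap2 and Steap3 overlapped Atp7a. Levels per kb depend on the annotated length. Ccs has 1782 bases of exon in the full annotation and 1067 in the basic set, which raises it to 9.47 CPM per kb in E18.5 controls, where it then overlaps Slc31a1, and to 15.7 CPM per kb in 7-week controls, with the same ranks. Atp7a has 8734 bases in the full annotation and 4912 in the basic set. With the latter it ranked 4 rather than 5 in E18.5 controls, overlapping Slc31a2. In 7-week controls it ranked 6 rather than 8, overlapping Commd1 and Steap2. The shift was larger in TETA at 7 weeks, where Atp7a ranked 5 rather than 8 and Commd1 7 rather than 5. There Commd1 (1.603 CPM per kb) overlapped Steap2 (1.604 CPM per kb).

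The partners of these genes were summarised as lists chosen with earlier results of these data known. At E18.5, 0 genes passed in any of 5 lists, against 0% of all genes. Among COMMD proteins and the complex that holds COMMD1, 1 of 11 tested genes passed at 7 weeks, near the 9.96% of all genes. The median log2 fold change was 0.00. At an unadjusted p under 0.05 there were 4 of the 11, against 24% of all genes. Ccdc22, a scaffold of that complex and the gene that passed, was at 26.3 ± 1.50 CPM in controls, against 29.6 ± 2.08 CPM under TETA. Its log2 fold change was 0.19 (edgeR adjusted p 0.0467). Its call was lost in 7 of the 9 fits that left out 1 library, all but those without control replicate 3 or TETA replicate 2 (edgeR adjusted p 0.0260 to 0.196 over the 9). It was also lost with the replicate block (edgeR adjusted p 0.0841), in DESeq2 (adjusted p 0.0572) and with either covariate. With the striatal covariate the log2 fold change of Ccdc22 was -0.02 (SE 0.20, against 0.058 in the reported fit). That fit called 1 of all 14240 genes. Its covariate did not overlap between the groups, so the fit could not separate TETA from striatal level. Between ages 8 of the 11 were lower at 7 weeks in controls and 1, Commd6, was higher, against 45.3% and 44% of all genes. Genes that deliver copper to mitochondria, such as Cox17 and Sco1, had 0 of 9 past the threshold at 7 weeks, and copper enzymes had 0 of 10, against the same 9.96%; at an unadjusted p under 0.05 there were 1 and 4, against 24% of all genes. Copper enzymes were higher at 7 weeks than at E18.5 for 7 of 11 tested genes, among them Sod1 and Cp, and lower for 2, Loxl1 and Loxl2, against 44% and 45.3% of all genes. Copper buffers and sensors, which include the metallothioneins and MTF-1, had 0 of 9 past the threshold for TETA at 7 weeks, against 9.96% of all genes. At an unadjusted p under 0.05 there were 3 of the 9, against 24%. Between ages 8 of the 9 were higher at 7 weeks in controls, against 44%.

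In the list of other metal reductases and carriers 1 of 5 tested genes passed at 7 weeks, against 9.96% of all genes. Slc39a2, a zinc importer of the ZIP family, was at 4.75 ± 0.614 CPM in controls, against 7.19 ± 0.550 CPM under TETA (SD, n = 5 and 4); the log2 fold change was 0.61 (SE 0.11, edgeR adjusted p 0.00118). At E18.5 it was at 9.33 ± 1.02 and 8.37 ± 0.494 CPM, a log2 fold change of -0.15 (edgeR adjusted p 0.996). It passed in edgeR's test when each of the 9 libraries was left out (adjusted p 0.00128 to 0.00871) and with the oligodendrocyte level as a covariate (log2 fold change 0.55, edgeR adjusted p 0.00894). With the striatal level as a covariate it was at 0.37 (SE 0.38) and did not pass (edgeR adjusted p 0.996); only 1 of all 14240 genes passed in that fit.

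Likeness was described by Pearson's r of log2 CPM over the 21 libraries with group means removed, across 13433 genes, with libraries sharing depth and makeup. The genes named had the highest r among these 13433, and the r that chance alone would give was not tested. The 3 genes most like Slc31a2 were Zfp438 (r = 0.82), Crebzf (0.815) and Cog5 (0.812). Those most like Slc31a1 were Pxmp4 (0.815), Slc9a9 (0.752) and Zfp524 (0.717). Atp7a was most like Slitrk3 (0.821), 1700102P08Rik (0.816) and Prr14l (0.804), and Atp7b most like Rprm (0.887), Nectin2 (0.817) and Gstm7 (0.802). Among pairs of the genes described here r ran from -0.52, between Atp7a and Atp7b, to 0.374, between Slc31a1 and Slc31a2; Commd1 and Steap3 stood at -0.474.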

How the data were processed

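The authors deposited raw counts by gene symbol in 2 tables, split by age, whose headers name the libraries. STAR 2.7.1a, featureCounts 2.0.1 and mm10 are named in the submitters' processing notes; annotation and strand setting are not given in the sources used here. Libraries were TruSeq stranded mRNA, per the labels' protocols. Groups and replicate numbers came from titles. E18.5 rows at 0 in control replicate 1-1 were divided by 11 before every fit except the alternative on undivided counts.

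Each age was fitted alone for TETA against control; all 21 libraries were fitted in 4 groups for ages and the interaction. Genes were kept by filterByExpr (minimum count 10), scaled by TMM and tested in edgeR (quasi-likelihood F-test), with p-values adjusted by Benjamini-Hochberg over all genes and a threshold of 0.05. SE is the log2 fold change divided by the square root of F. Levels are CPM scaled by TMM over 21 libraries. Fits were tested on simulated data. No 2 replicate libraries agreed within sampling noise (lowest chi-square per gene 2.27 over 46 pairs). Software was R 4.3.3, edgeR 4.0.16, limma 3.58.1, DESeq2 1.42.0 and Python 3.11.15.

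The genes and lists were chosen with earlier results of these data known. Named were all 10 genes, list genes past the adjusted threshold for TETA, and the 3 most like genes for 4 transporters; other list genes are examples chosen after their values were seen. Alternatives were DESeq2, other filters, no TMM, undivided counts, leaving out libraries, replicate blocks, summed libraries and covariates. The age contrast in TETA libraries, the Y-linked covariate in the joint fit and basic-set lengths were added after seeing the data. Promoter windows matched 9 of 10 genes (RefSeq, GRCm38.p6); Ccs had none.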

Additional observations from a re-analysis of the deposited data

Results flagged for a closer look

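Of 36 sets of libraries (9 genes in 4 groups), 3 held a library far from the others by Dixon's ratio; chance alone would give about 1.8, or 1 in 20. All 3 were controls at 7 weeks. Ccs was at 18.66 CPM in replicate 4 with the others at 16.19 to 16.41 CPM (ratio 0.911); the choroid plexus markers were at 65.1 CPM in the same library, and their part was not tested. Commd1 was at 7.736 CPM in replicate 5, with the others at 9.079 to 9.386 CPM (ratio 0.814). Steap3 was at 6.475 CPM in replicate 2, with the others at 7.252 to 7.555 CPM (ratio 0.719).

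The effect of TETA differed between the ages for 2 of 45 tested genes in the 5 partner lists (4.44%) by the interaction term in edgeR, near the 3.1% of all 14660 genes. For Slc39a2 the effect at 7 weeks minus that at E18.5 was 0.75 on the log2 scale (SE 0.13, adjusted p 0.000638). For Sod3, an extracellular superoxide dismutase, it was -0.66 (SE 0.19, adjusted p 0.0487), from effects of 0.48 at E18.5 and -0.17 at 7 weeks that did not pass on their own (edgeR adjusted p 0.801 and 0.309). The call for Sod3 was lost in 16 of the 21 fits that left out 1 library (edgeR adjusted p 0.0169 to 0.111), with no filter, without TMM factors, on undivided counts and with the Y-linked covariate; that for Slc39a2 held in all of these.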

How the results depend on the processing

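Among the genes described here, 0 passed the threshold for TETA at E18.5 and 0 for the interaction under every alternative run on those libraries. Of all genes, 0% to 0.0561% were called at E18.5 and 1.97% to 4.24% for the interaction. Between ages in controls the count stayed at 8 throughout, against 74.4% to 90.7% of all genes. Between ages in TETA libraries it was 7, and 8 with Steap4 in DESeq2 and with no filter, against 73.0% to 89.4%. At 7 weeks the count of 1 became 2 without TMM factors (Slc31a2 and Steap2, the latter at 0.21) and 0 with the striatal or the oligodendrocyte level as a covariate, where 1 and 891 of 14240 genes were called against 1418; leaving out each library gave from 0 to 1. The replicate block left it at 1 (Slc31a2 at 0.35, edgeR adjusted p 0.0318) changed no call of the other genes described, and kept that of Slc39a2 but not that of Ccdc22 (0.17, edgeR adjusted p 0.0841); deviations of same-numbered libraries correlated at -0.219 to 0.197 at E18.5 and -0.0734 to -0.0225 at 7 weeks, so the numbers were not taken to pair libraries.

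Of effects that passed, only that of Ccdc22 at 7 weeks changed sign, at -0.019 (SE 0.20) with the striatal covariate. Slc31a2 between ages in controls kept its sign, from -0.32 to -0.25 when each library was left out. In TETA libraries, a contrast on other libraries rather than another processing, Slc31a2 was at 0.023 (SE 0.088). For TETA at E18.5, Slc31a2 was at -0.0039 without TMM factors and at -0.0099 and -0.0078 under the 2 blocks. Atp7b was at 0.00061 in DESeq2, 0.00071 with no filter, 0.0069 and 0.0042 under the blocks and 0.0011 with libraries summed. Atox1 was at 0.0056 with libraries summed and 0.021 without both libraries numbered 1-2. Ccs was at -0.00018 with at least 50 counts, -0.0073 without TMM factors, -0.00022 on undivided counts and -0.033 with the Y-linked covariate. At 7 weeks Atox1 was at 0.054 with the oligodendrocyte covariate and Commd1 at 0.16 with the striatal one. Between ages in controls Atox1 was at -0.099 without TMM factors, while the separate contrast in TETA libraries gave -0.0092. The interaction of Commd1 was -0.0042 in DESeq2.

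Leaving out each library gave, at E18.5, from -0.064 to 0.041 for Slc31a2, -0.036 to 0.049 for Atp7b, -0.061 to 0.049 for Atox1 and -0.032 to 0.045 for Ccs. At 7 weeks it gave -0.12 to 0.018 for Atox1 and -0.079 to 0.0017 for Commd1; between ages -0.017 to 0.12 for Atox1; and for the interaction -0.13 to 0.0092 for Atox1, -0.013 to 0.18 for Atp7b and -0.045 to 0.056 for Commd1. Steap4, with at most 12 counts per library, was limited by depth; between ages in controls it was at 1.60 on divided counts without a filter and at -1.71 on counts as deposited, and passed in neither. Group levels without TMM factors stayed within 1 SD for 39 of 40, the exception being Slc31a1 in TETA at 7 weeks (22.9 CPM against 23.9 CPM).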
